A study of Mus musculus with 8 samples.

Results

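The genes described here encode 10 secreted or transported proteins of airway mucosal defence: Ltf, Lcn2, Hp, Reg3g, Bpifb1, Bpifa1, Slpi, Wfdc2, Pigr and Chil1. They were chosen by symbol, as the rows of the deposited count table whose gene identifiers map to these names, and all 10 were found among 55401 genes. All 10 also passed the filter on low counts, as part of 16964 genes that were tested. Expression was measured by RNA sequencing in 8 mouse libraries described as airway cells, taken at day 10 after tamoxifen. The 4 mutant libraries have the genotype Scgb1a1cre; Cdh1F/F, and the 4 control libraries have the genotype Scgb1a1cre; Cdh1F/+. Both groups therefore carried the Cre recombinase, driven by the promoter of the club cell gene Scgb1a1, both received tamoxifen, and the controls also carried a floxed allele of Cdh1, the gene of the adhesion protein E-cadherin. Per the series text, immune and endothelial cells were depleted and EPCAM-positive cells were sorted by GFP, but the sorted fraction of each library is not given in the labels. Nor do they state that each library is a separate animal, and p-values here reflect only the spread among these libraries, which may be technical.

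The lining of the airway is coated with a fluid into which secretory cells, chiefly club and goblet cells, release proteins that bind microbes, withhold nutrients from them or block proteases. Lactoferrin (Ltf), lipocalin 2 (Lcn2) and haptoglobin (Hp) keep iron away from bacteria by binding iron itself, bacterial iron carriers and free haemoglobin. Reg3g is a secreted C-type lectin that binds Gram-positive bacteria. Bpifa1 and Bpifb1 belong to the BPI-fold family of lipid-binding proteins of the upper and conducting airway. Slpi and Wfdc2 are small WAP-domain proteins, of which Slpi is an inhibitor of neutrophil elastase, Pigr carries polymeric IgA and IgM across epithelium, and Chil1 is a chitinase-like protein that binds chitin but does not cut it.

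The stretches before the start sites are shown for Ltf, which differed most between the groups, for Slpi, which differed with the least spread, and for Bpifb1 and Bpifa1, genes of 1 family on the same stretch of chromosome 2 whose levels parted. They are the 250 bases before each start in the RefSeq promoter table (GRCm38.p6), 5′ to 3′ on the gene's own strand, with capitals for every match to the motifs searched.
Ltf (chr9:111019042-111019291, plus strand): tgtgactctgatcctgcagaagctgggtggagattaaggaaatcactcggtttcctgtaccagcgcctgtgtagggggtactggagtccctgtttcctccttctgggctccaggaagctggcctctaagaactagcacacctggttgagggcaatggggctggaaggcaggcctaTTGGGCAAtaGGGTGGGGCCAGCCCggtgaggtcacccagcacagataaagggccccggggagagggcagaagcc
Slpi (chr2:164356508-164356757, minus strand): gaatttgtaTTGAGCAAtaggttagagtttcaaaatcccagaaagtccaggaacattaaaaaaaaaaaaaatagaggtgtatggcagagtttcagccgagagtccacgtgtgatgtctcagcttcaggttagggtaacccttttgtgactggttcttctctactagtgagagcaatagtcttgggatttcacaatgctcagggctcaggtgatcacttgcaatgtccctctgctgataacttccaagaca
Bpifb1 (chr2:154190568-154190817, plus strand): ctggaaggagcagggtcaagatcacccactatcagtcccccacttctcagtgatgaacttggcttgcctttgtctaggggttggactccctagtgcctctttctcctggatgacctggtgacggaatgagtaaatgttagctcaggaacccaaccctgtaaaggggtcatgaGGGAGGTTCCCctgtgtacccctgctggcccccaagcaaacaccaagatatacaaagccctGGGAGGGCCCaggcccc
Bpifa1 (chr2:154142630-154142879, plus strand): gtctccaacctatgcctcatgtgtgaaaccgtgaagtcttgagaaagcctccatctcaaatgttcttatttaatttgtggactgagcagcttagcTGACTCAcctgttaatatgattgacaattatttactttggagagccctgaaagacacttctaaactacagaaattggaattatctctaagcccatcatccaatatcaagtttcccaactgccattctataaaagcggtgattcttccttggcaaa

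Motifs of 5 transcription factor families were searched on both strands: NF-kB (GGG and CC with 5 unspecified bases between them), C/EBP (TTGCNNAA), STAT (TTCNNNGAA), AP-1 and FOXA. The table held 9 of the 10 genes, and 32851 windows in all served as background. A gene with several starts was counted once, if any of its windows held the letters, whereas the background counts single windows. The C/EBP letters were present before Ltf, Lcn2 and Slpi, which is 3 of 9 genes, against 9.56% of all windows. In the Ltf window they lie 75 to 68 bases before the start, and in the Slpi window 241 to 234 bases before it. The NF-kB letters are loose and were present before 7 of 9 genes, against 45.8% of all windows. They match 3 overlapping stretches before Ltf, between 65 and 51 bases from the start, and 3 before Bpifb1, between 78 and 68 bases and between 17 and 8 bases from it. The Bpifa1 window holds no match to these letters and a single match to the AP-1 letters (TGANTCA), 155 to 149 bases before the start, which 6.75% of all windows hold. The STAT letters occur once, before another start of Bpifb1 (7.02% of all windows), and the FOXA letters (TGTTTAC) before 0 of 9 genes (3.17% of all windows). The deposited annotation counts the last 21 bases of the Ltf window as exon and 0 of the other windows shown. The Slpi window lies within the deposited span of that gene. Of the windows not shown, that of Lcn2 is exonic over 197 of its 250 bases. The Wfdc2 windows lie within the span of that gene and are exonic over 146 of 250 bases. These matches describe letters and not binding, and no measurement of binding was analysed here.

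Total counts ran from 15111663 to 21673654 per library, and levels are given as CPM, the count scaled by TMM to a common library total. The count of 3 that a listed 0 allows corresponds to 0.136 to 0.207 CPM, which covers counting error only. Cdh1 itself stood at 403.4 ± 6.08 CPM in mutant libraries and 383.5 ± 44.7 CPM in control libraries (SD, n = 4 each), so its level does not check the labels and every direction reported here rests on them. Scgb1a1 stood at 4177 ± 307 CPM in mutant libraries and 13402 ± 554 CPM in control libraries, 3.21-fold lower. The epithelial marker Epcam was higher in mutant libraries, at 102.7 ± 6.79 CPM against 67.1 ± 6.91 CPM, and the endothelial marker Pecam1 lower, at 842 ± 57.6 CPM against 1173 ± 183 CPM in control libraries. The adjusted p from edgeR was 0.00299 for Epcam and 0.0369 for Pecam1, an endothelial gene that stayed abundant despite the depletion that the series text describes. RNA of several cell types is thus present in both groups, and fewer cells of a type and less RNA per cell cannot be told apart. Mutant libraries differed from each other by a chi-square of 6.13 to 12.8 per gene. The controls fell into pairs, with 4.72 between controls 2 and 3, 20.0 between controls 1 and 4, and 35.8 to 45.3 across the pairs. The members' calls are therefore also given with each control pair left out.

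Of the 10 genes, 5 were higher in mutant libraries and 0 were lower at a threshold of 0.05 on the Benjamini-Hochberg adjusted p of edgeR, where 5.45% of all tested genes were higher, 2.36% lower and 7.81% either. The 5 that rose were Ltf, Reg3g, Bpifb1, Lcn2 and Slpi. For 6 of the 10, these 5 and Wfdc2, the 4 mutant libraries all lay above the 4 control libraries, which holds for 9.75% of all tested genes, against 7.07% with the mutant libraries all below and 16.8% in either direction. The median log2 fold change of the 10 genes was 0.54, against -0.01 over all genes tested. The 10 were chosen with earlier results of these data known, so an excess over all genes may follow from the choice. The 5 calls were kept in all 19 other fits of the whole table, including those without controls 2 and 3 and without controls 1 and 4.

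**Figure D1:**
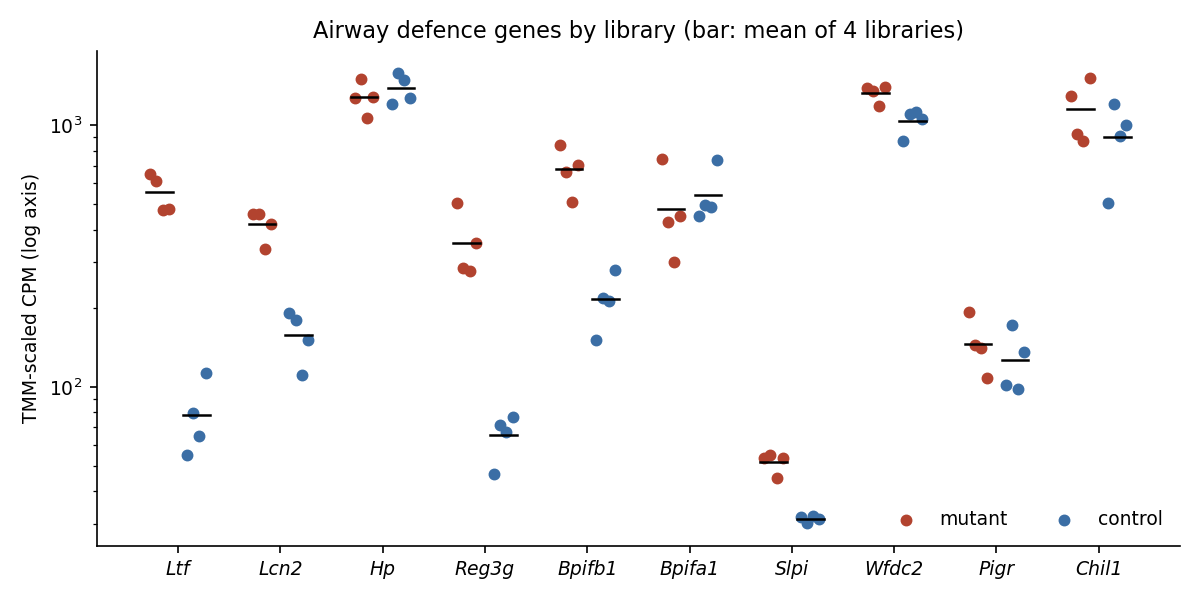
TMM-scaled CPM (log axis) of the 10 defence genes in each of the 4 mutant (left, red) and 4 control (right, blue) libraries, grouped by role, with a bar at each mean. The groups do not overlap for Ltf, Lcn2, Reg3g, Bpifb1, Slpi and Wfdc2, and they overlap for Hp, Bpifa1, Pigr and Chil1.

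Of the proteins that withhold iron and haem, Ltf and Lcn2 rose and Hp did not pass the test. Lactoferrin, encoded by Ltf (ENSMUSG00000032496.7, GRCm38 chromosome 9, 111019271 to 111042767, plus strand), stood at 650.4, 613, 477 and 480.1 CPM in mutant libraries 1 to 4, against 55.0, 79.3, 64.8 and 113 CPM in controls 1 to 4. The lowest mutant library, mutant 3, was above the highest control library, control 4. The means were 555 ± 89.9 CPM in mutant and 77.9 ± 25.2 CPM in control libraries (SD, n = 4 each), a log2 fold change of 2.83 ± 0.22 (SE) or 7.13-fold with a 95% interval from 5.03 to 10.1. The adjusted p was 0.00012 (Benjamini-Hochberg adjusted, edgeR quasi-likelihood), and the log2 fold change ranked 47 from the top among 16964 genes.

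Lipocalin 2, which binds the siderophores of bacteria, is encoded by Lcn2 (ENSMUSG00000026822.14, chromosome 2, 32384633 to 32388252, minus strand). It stood at 457, 460.2, 338 and 419 CPM in mutant libraries 1 to 4, against 191, 180.3, 111 and 151 CPM in control libraries 1 to 4. The groups did not overlap, and mutant 3 and control 3 were the lowest of their groups. The change was 2.64-fold (95% interval 2.02 to 3.44, log2 fold change 1.40 ± 0.17 SE), with an adjusted p of 0.00126 (edgeR, Benjamini-Hochberg). Haptoglobin, encoded by Hp (ENSMUSG00000031722.10, chromosome 8, 109575128 to 109579172, minus strand), stood at 1270, 1501, 1065 and 1283 CPM in mutant libraries, against 1212, 1584, 1490 and 1276 CPM in control libraries. The groups overlapped, the ratio was 0.921 with an interval from 0.758 to 1.12, and the adjusted p was 0.586 (edgeR, Benjamini-Hochberg).

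The proteins of neutrophil granules include lactoferrin and lipocalin 2, so the marker genes of neutrophils were set beside them. Camp and Ngp, which encode other neutrophil granule proteins, were low and overlapped between groups. Camp stood at 0.589 to 1.04 CPM in mutant and 0.647 to 1.13 CPM in control libraries. Ngp stood at 1.62 to 2.48 CPM in mutant and 1.76 to 3.69 CPM in control libraries. The neutrophil surface and primary granule genes Ly6g, Mpo and Elane were below the filter, with 0 to 18 counts in any library. Of the 12 neutrophil markers 9 were tested, and Mmp8, a collagenase also held in neutrophil granules, was the single one that rose. It stood at 6.49 ± 0.621 CPM in mutant and 3.02 ± 0.291 CPM in control libraries (SD, n = 4 each), without overlap. The median log2 fold change of the 9 was 0.53, and Retnlg and Cxcr2 also lay above all control libraries without passing the test. Retnlg, a resistin-like protein of neutrophils, stood at 17.7, 12.8, 12.7 and 11.2 CPM in mutant libraries, against 6.46, 2.69, 1.70 and 9.58 CPM in control libraries. Cxcr2, their chemokine receptor, stood at 6.27, 6.49, 6.67 and 6.16 CPM in mutant libraries, against 5.25, 2.07, 0.647 and 6.15 CPM in control libraries. Both were lowest in controls 2 and 3. The summed level of the list overlapped between groups, at 116 to 125 CPM in mutant and 21.3 to 157 CPM in control libraries. The spread in controls came with the library pairs: S100a9, a calcium-binding protein abundant in neutrophils, stood at 40.6, 38.2, 42.1 and 46.5 CPM in mutant libraries 1 to 4, against 36.1, 18.5, 5.53 and 67.1 CPM in controls 1 to 4. The part of neutrophils in the levels of Ltf and Lcn2 was not tested.

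**Figure D2:**
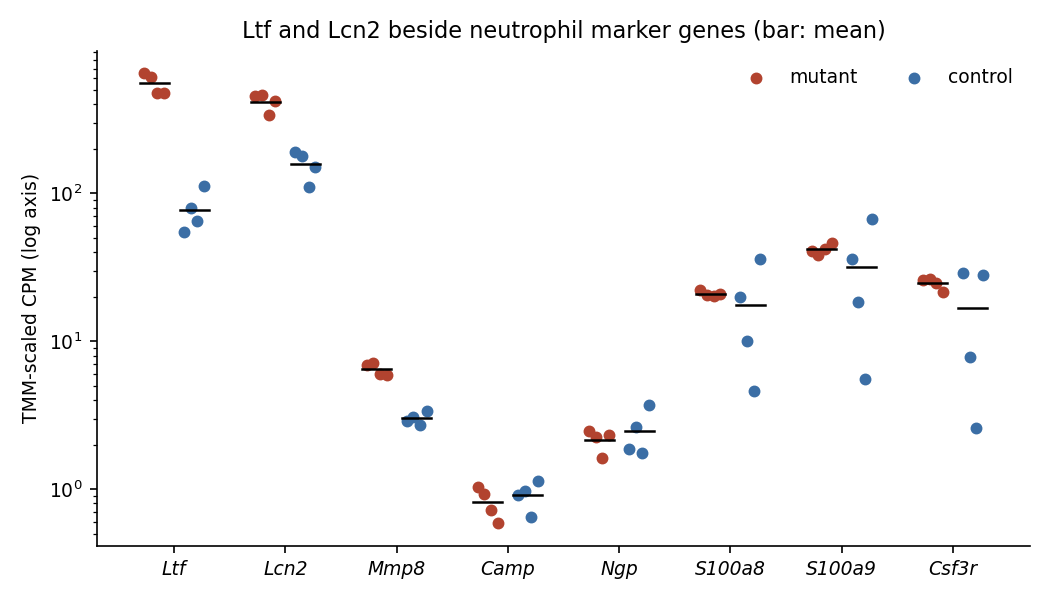
TMM-scaled CPM (log axis) of Ltf and Lcn2 and of 6 neutrophil marker genes in each mutant (left, red) and control (right, blue) library, with a bar at each mean. Ltf, Lcn2 and Mmp8 lie above all control libraries in all mutant libraries, while Camp and Ngp overlap between groups at 0.589 to 3.69 CPM. S100a8, S100a9 and Csf3r are low in controls 2 and 3.

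Of all tested genes 5.45% rose and 2.36% fell, which are the shares to set beside every count of a list here. Among 14 other genes of iron and haem handling, 4 rose and 0 fell, all 14 being tested, with a median log2 fold change of 0.24. The 4 were Lrp2 (megalin, an endocytic receptor that can take up lipocalin 2), which rose 2.23-fold, Cp (ceruloplasmin, which oxidises iron), 1.40-fold, Tfrc (the transferrin receptor), 1.35-fold, and Trf (transferrin), 1.34-fold. Lrp2 stood at 141, 168, 173 and 186 CPM in mutant libraries, against 66.7, 73.8, 75.9 and 84.1 CPM in control libraries. Trf and Cp were abundant in both groups, at 681 ± 51.7 and 459 ± 47.8 CPM in mutant and 508 ± 54.7 and 328 ± 38.5 CPM in control libraries. Epcam was 1.53-fold higher in the same libraries, more than Cp, Tfrc and Trf. Hpx, which binds haem, and Hamp, the iron hormone hepcidin, did not pass the test and averaged under 5 CPM in both groups.

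The lectin Reg3g rose, and the other genes of its family were barely detected. Reg3g (ENSMUSG00000030017.2, chromosome 6, 78466269 to 78468872, minus strand) stood at 507, 285, 278 and 356 CPM in mutant libraries 1 to 4, against 46.4, 71.7, 67.3 and 76.7 CPM in control libraries 1 to 4. Every mutant library lay above every control library, and mutant 1 was the highest. The change was 5.44-fold (95% interval 3.83 to 7.73, log2 fold change 2.44 ± 0.22 SE), with an adjusted p of 0.0003 (edgeR, Benjamini-Hochberg), and ranked 69 from the top. Of 6 other Reg genes 0 passed the filter, and their summed level was 0.327 to 0.806 CPM in mutant and 0.145 to 0.620 CPM in control libraries. Reg2 and Reg4 were listed at 0 in all 8 libraries, and Reg3b had 2 counts in mutant 1 and 0 in the others. Reads shared by near-identical relatives were not counted, per the file headers.

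The BPI-fold genes Bpifb1 and Bpifa1 lie 41.6 kb apart on the same strand of chromosome 2, with Bpifa5, listed at 0 in all libraries, between them. Their levels parted between the groups. Bpifb1 (ENSMUSG00000027485.15, 154190818 to 154220369, plus strand) stood at 841, 666, 509 and 704 CPM in mutant libraries, against 152, 218, 213 and 280.4 CPM in control libraries. The groups did not overlap, and the change was 3.15-fold (95% interval 2.31 to 4.30, log2 fold change 1.65 ± 0.20 SE), with an adjusted p of 0.00125 (edgeR, Benjamini-Hochberg). Bpifa1 (ENSMUSG00000027483.7, 154142880 to 154149219, plus strand) stood at 746, 427, 300.0 and 449 CPM in mutant libraries, against 449, 496, 486 and 735 CPM in control libraries. These values overlapped, with mutant 1 and control 4 the highest of their groups. The ratio for Bpifa1 was 0.887 with an interval from 0.590 to 1.33, and the adjusted p was 0.713 (edgeR, Benjamini-Hochberg).

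Taken within each library, the ratio of Bpifb1 to Bpifa1 was 1.13, 1.56, 1.70 and 1.57 in mutant libraries 1 to 4, against 0.338, 0.440, 0.439 and 0.381 in control libraries 1 to 4. Bpifb1 thus had more counts than Bpifa1 in all 4 mutant libraries and fewer in all 4 control libraries. Bpifb1 has the longer deposited length. Per deposited length it stayed below Bpifa1 on average, at 188 against 311 RPKM in mutant and 59.7 against 351 RPKM in control libraries. The log2 difference was 1.89, or 3.70-fold, with an exact two-sided permutation p of 0.0286, the smallest that 70 arrangements can give, and 0.0286 after Benjamini-Hochberg adjustment over the 2 ratios computed. A ratio within a library does not move with the scaling of that library. Within each group the libraries high in Bpifa1 were also high in Bpifb1: mutant 1 and control 4 were the highest of their groups for both genes.

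**Figure D3:**
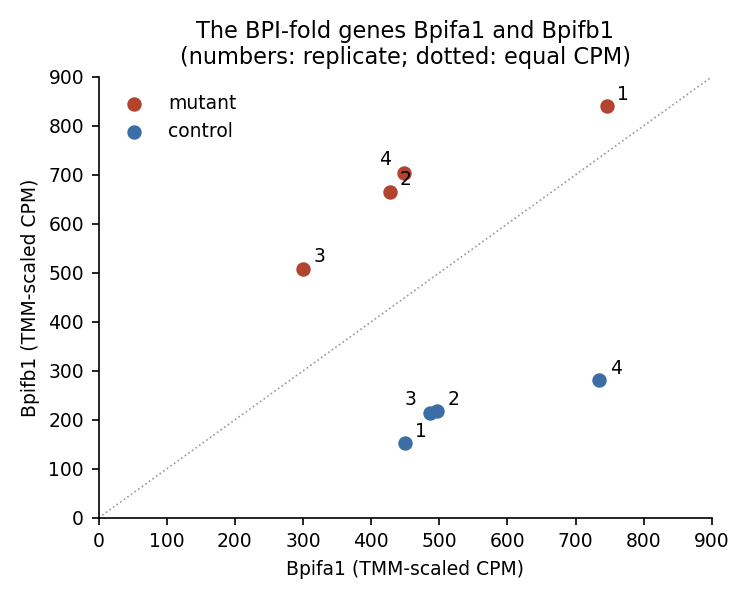
TMM-scaled CPM of Bpifb1 (vertical) against Bpifa1 (horizontal) in the 4 mutant (red) and 4 control (blue) libraries, numbered by replicate, with a dotted line where the CPM, not adjusted for gene length, are equal. The mutant libraries lie above the line, at ratios of 1.13 to 1.70, and the control libraries below it, at 0.338 to 0.440.

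Of 14 other BPI-fold genes 4 passed the filter, and Bpifb5 was the single one that rose. It lies 3.4 kb past the end of Bpifb1 and stood at 10.9, 10.4, 11.4 and 11.4 CPM in mutant libraries, against 5.59, 6.34, 6.17 and 7.12 CPM in control libraries. That is 1.75-fold, with an adjusted p of 0.00271 (edgeR, Benjamini-Hochberg). Lbp, which binds bacterial lipopolysaccharide, averaged 111 ± 6.19 CPM in mutant and 85.8 ± 19.6 CPM in control libraries and did not pass the test. Bpifa5, Bpifa6, Bpifb2, Bpifb3 and Bpifb9b were listed at 0 in all libraries.

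Of the WAP-domain members, Slpi rose and Wfdc2 did not pass the test. Slpi (ENSMUSG00000017002.14, chromosome 2, 164354070 to 164389095, minus strand), the inhibitor of neutrophil elastase, stood at 53.3, 54.7, 44.9 and 53.4 CPM in mutant libraries, against 31.8, 30.1, 32.1 and 31.2 CPM in control libraries. The control values were the most alike of all 10 genes, and the groups did not overlap. The change was 1.65-fold (95% interval 1.46 to 1.86, log2 fold change 0.72 ± 0.08 SE), with an adjusted p of 0.000623 (edgeR, Benjamini-Hochberg). Its size was close to that of Epcam, and per unit of Epcam the log2 difference in Slpi was 0.10, with overlapping groups and an exact two-sided permutation p of 0.4.

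Wfdc2 (ENSMUSG00000017723.11, chromosome 2, 164562413 to 164568510, plus strand), a secreted protein of airway epithelium also known as HE4, stood at 1394, 1351, 1183 and 1398 CPM in mutant libraries, against 871, 1104, 1130 and 1055 CPM in control libraries. All mutant libraries were above all control libraries, though mutant 3 was close to control 3. The ratio was 1.28 with an interval from 1.09 to 1.502, and the adjusted p of 0.0666 (edgeR, Benjamini-Hochberg) missed the threshold. It passed in 5 of 19 other fits, and per unit of Epcam it was lower in mutant libraries, by a log2 difference of -0.26 (exact two-sided permutation p = 0.0286). The median of all tested genes on that scale was -0.61. Wfdc2 and Slpi lie 173.3 kb apart. The ratio of Slpi to Wfdc2 was 0.0382, 0.0405, 0.0380 and 0.0382 in mutant libraries, against 0.0366, 0.0273, 0.0284 and 0.0296 in control libraries, 1.28-fold higher with an exact two-sided permutation p of 0.0286. Control 1 was nearest to the mutant libraries, and with any 1 of the 4 mutant libraries left out the exact permutation p was 0.0571.

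Of 20 other WAP-domain genes counted, 14 were tested, and Wfdc13, Wfdc3 and Wfdc21 rose while 0 fell. Wfdc13 starts 116.6 kb past Wfdc2 on chromosome 2, Wfdc3 lies 43.5 kb beyond it, and both were expressed at low levels. Between Wfdc2 and Wfdc13 lie Wfdc6a, Eppin, Wfdc8, Wfdc6b, Wfdc16 and Wfdc10, which were tested and not called. Their ratios were 0.640, 0.758, 0.733, 0.542, 1.28 and 1.27. Wfdc13 stood at 5.87, 4.09, 2.91 and 4.21 CPM in mutant libraries, against 1.35, 0.964, 0.647 and 0.973 CPM in control libraries, or 4.28-fold. Wfdc3 averaged 5.88 ± 0.902 CPM in mutant and 2.28 ± 0.364 CPM in control libraries, 2.58-fold, and Wfdc21 8.13 ± 1.77 and 4.22 ± 0.470 CPM, 1.93-fold. Their adjusted p ran from 0.00197 to 0.0120 (edgeR, Benjamini-Hochberg).

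The receptor Pigr and the genes that supply its cargo did not pass the test. Pigr (ENSMUSG00000026417.13, chromosome 1, 130826684 to 130852249, plus strand) stood at 193, 145, 140.3 and 108 CPM in mutant libraries, against 101, 173, 98.3 and 136 CPM in control libraries. The groups overlapped, and the ratio was 1.15 with an interval from 0.825 to 1.604 and an adjusted p of 0.588 (edgeR, Benjamini-Hochberg). Of 8 genes of immunoglobulin production and transport, Fcgrt among them, 0 rose and 0 fell, with a median log2 fold change of 0.07. The largest ratio of these was that of Ccl28, at 2.51 with an interval from 1.08 to 5.82. It was low, averaging 1.29 CPM in mutant and 0.509 CPM in control libraries, and its groups overlapped. Jchain, which links IgA into the polymers that Pigr carries, averaged 139.8 ± 35.6 CPM in mutant and 143 ± 25.8 CPM in control libraries, and Igha, the IgA heavy chain, 822 ± 204 CPM in mutant and 788 ± 149 CPM in control libraries. Of 7 plasma and B cell markers 0 were called in either direction. With 7.81% of all tested genes called, 0 calls in lists this short do not show an absence of change.

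Chil1 did not pass the test either. Chil1 (ENSMUSG00000064246.10, chromosome 1, 134182176 to 134190181, plus strand) stood at 1293, 924, 869 and 1524 CPM in mutant libraries, against 503, 1210, 909 and 1006 CPM in control libraries. The groups overlapped, with control 1 the lowest library, and the ratio was 1.27 with an interval from 0.839 to 1.93 and an adjusted p of 0.449 (edgeR, Benjamini-Hochberg). Of 5 tested genes of the chitinase family besides Chil1, Chil3 rose, at 807, 607, 575 and 612 CPM in mutant libraries against 271, 293, 421 and 309.7 CPM in control libraries, or 2.01-fold. Chil3 is made by alveolar macrophages in the mouse lung. Its relative Chil4 varied within both groups, from 10.3 to 58.2 CPM in mutant and from 0.512 to 62.8 CPM in control libraries. Markers of macrophages and monocytes were higher in mutant libraries for 4 of 10 genes (Mrc1, Cd14, Chil3 and Cd68). In mutant libraries 1 other marker lay below all control libraries without passing the test. The summed levels were 1051 to 1353 CPM in mutant and 730.0 to 857 CPM in control libraries. This sum includes Chil3, at 575 to 807 CPM in mutant and 271 to 421 CPM in control libraries. The part of these cells in the members' changes was not tested.

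**Figure D4:**
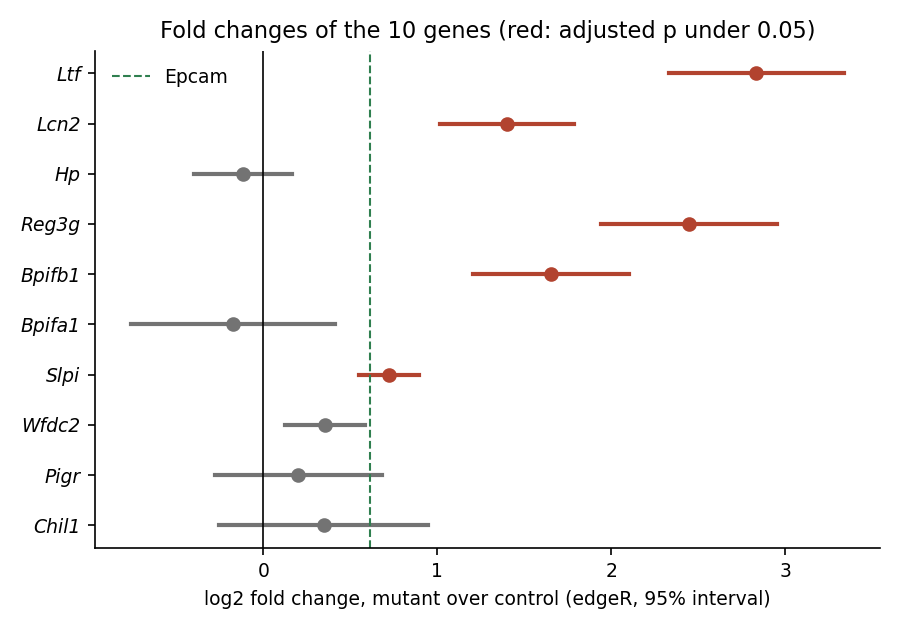
Log2 fold change, mutant over control, of the 10 genes with 95% intervals from edgeR's quasi-likelihood fit (red: adjusted p under 0.05, grey: not), and the log2 fold change of Epcam as a dashed line. The intervals of Ltf, Lcn2, Reg3g and Bpifb1 lie above the Epcam value, that of Slpi spans it, and those of Hp, Bpifa1 and Wfdc2 lie below it.

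The libraries differed in all these genes together to some degree. Mutant 3 was the lowest mutant library for 9 of the 10 genes, all but Pigr, and control 1 was the lowest control library for 7. Mutant 1 was the highest mutant library for 5 genes (Ltf, Reg3g, Bpifb1, Bpifa1 and Pigr). The summed level of the 10 genes was 7404, 6427, 5204 and 6774 CPM in mutant libraries, against 3613, 5147, 4601 and 4861 CPM in control libraries. The 5 genes that rose made up 31.9% ± 1.73 of this sum in mutant and 12.1% ± 1.39 in control libraries (SD, n = 4 each), which follows from the choice of those 5. The other 5 summed to 4391 ± 602 CPM in mutant and 4006 ± 612 CPM in control libraries.

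Levels of different genes were compared as RPKM, the CPM divided by the deposited gene length in kilobases. In mutant libraries the order from high to low was Wfdc2 (1168 RPKM), Hp (797), Chil1 (411), Bpifa1 (311), Bpifb1 (188), Reg3g (169), Ltf (161), Lcn2 (159.5 RPKM), Slpi (43.7) and Pigr (36.4 RPKM). Neighbours in this order overlapped in their ranges over libraries except Wfdc2 and Hp, Hp and Chil1, and Lcn2 and Slpi. In control libraries the order was Wfdc2 (912 RPKM), Hp (866), Bpifa1 (351), Chil1 (323), Lcn2 (60.4), Bpifb1 (59.7), Pigr (31.6), Reg3g (31.0), Slpi (26.5) and Ltf (22.6 RPKM). There the ranges of Hp and Bpifa1 and of Chil1 and Lcn2 did not overlap, and those of the other neighbours did. By this measure Ltf, the last of 10 in control libraries, overlapped in its range with Reg3g and Lcn2 in mutant libraries. The deposited length sums the annotated exons of a gene and can exceed the length of the RNA expressed. The order of genes depends on it.

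Epcam was higher in mutant libraries, so each gene was also taken per unit of Epcam within its library, with an exact two-sided permutation test for each of the 10. On this scale the median of all tested genes was at a log2 difference of -0.61. Ltf (2.26), Reg3g (1.81), Bpifb1 (1.05) and Lcn2 (0.80) remained above all control libraries on the log2 scale, each with an exact permutation p of 0.0286. Wfdc2 (-0.26) and Hp (-0.74) lay below all control libraries, each also at 0.0286. Bpifa1 (-0.84) and Pigr (-0.41) had an exact permutation p of 0.0571, and Slpi (0.10) and Chil1 (-0.24) one of 0.4. The p-values of these 10 tests are unadjusted, and no value below 0.0286 is possible with 4 libraries against 4. Epcam stands for all epithelium, and the share of airway epithelium in a library was not measured.

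**Figure D5:**
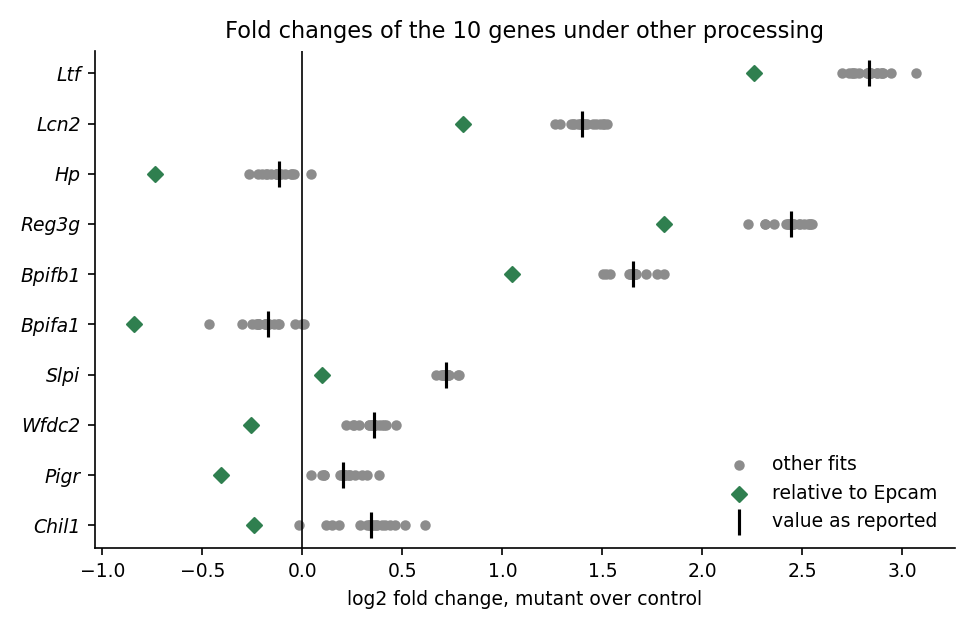
Log2 fold change, mutant over control, of the 10 genes as reported (black bar), in 19 other fits (grey points) and per unit of Epcam (green diamond). Ltf, Lcn2, Reg3g and Bpifb1 stay above 0 throughout, Slpi falls to 0.10 per unit of Epcam, and Wfdc2 lies above 0 in the fits and at -0.26 per unit of Epcam.

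The marker genes of airway secretory cells moved in the same libraries. Of 8 club cell markers 6 fell, led by Pon1, Scgb1a1 and Cyp2f2, with summed levels of 7518 to 9416 CPM in mutant and 24048 to 26279 CPM in control libraries. Of 9 goblet cell markers 6 rose, led by Muc5ac, Muc5b and Agr2, with sums of 677 to 1113 CPM in mutant and 164 to 294 CPM in control libraries, and of 8 ciliated cell markers 6 rose, led by Foxj1, Dynlrb2 and Cfap53. The gel-forming mucin gene Muc5b stood at 839.6, 659, 662 and 506 CPM in mutant libraries, against 109, 202, 134 and 182 CPM in control libraries. Agr2, a chaperone that folds mucins, averaged 43.6 ± 13.01 CPM in mutant and 5.58 ± 2.61 CPM in control libraries. The part of these cell types in the levels of Ltf, Lcn2, Reg3g, Bpifb1 and Slpi was not tested. Of 7 alveolar type II markers 0 were called, of 4 basal cell markers tested 0, and of 7 fibroblast and smooth muscle markers 0. These lists are short, and 7.81% of all tested genes were called, so counts of 0 do not show an absence of change. Of 7 endothelial markers 4 fell (Tek, Ramp2, Cdh5 and Pecam1), and of 6 alveolar type I markers 1, Rtkn2, fell. Of 8 submucosal gland markers 2 passed the filter, of which Dmbt1 rose, and Prol1, Smr3a and Dcpp1 were listed at 0 in all libraries. Of 7 markers of airway cartilage 2 passed it, of which Col9a1 rose, averaging 0.839 ± 0.201 CPM in mutant libraries and having counts in a single control library.

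Of 35 other antimicrobial effectors 24 were tested. Of these 6 rose and 0 fell, with a median log2 fold change of 0.20. Dmbt1, a scavenger receptor that agglutinates bacteria, had 829, 527, 445 and 528 counts in mutant libraries, against 5, 4, 2 and 7 counts in control libraries. With control counts so close to the lower limit, its fold is not given. Retnla, a secreted resistin-like protein of the type 2 response, stood at 2836, 1991, 1806 and 1579 CPM in mutant libraries, against 216, 187, 252 and 204 CPM in control libraries. The mucosal chemokine Cxcl17 stood at 121, 129, 98.5 and 123 CPM in mutant libraries, against 41.1, 49.0, 41.6 and 43.4 CPM in control libraries, or 2.70-fold. None of these 3 overlapped between groups. Ccl20, a chemokine with antimicrobial activity, rose 3.10-fold, Pglyrp1, which binds peptidoglycan, 1.70-fold, and Sftpd, a lung collectin, 1.54-fold. The lysozyme genes Lyz1 and Lyz2 did not pass the test, and Lyz2 averaged 5871 ± 1089 CPM in mutant and 6129 ± 1104 CPM in control libraries. Lpo and Defb1 were below the filter, and Defb2, Defb3 and Defb4 were listed at 0.

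Signalling by IL-17, IL-22 and IL-1 is known from other settings to act on several of the 10 genes. A list of 39 genes covered this and acute-phase signalling. It holds cytokines, receptors and transcription factors, and also secreted products such as Orm1 and Cxcl5. Of the 32 that were tested 7 rose and 0 fell, with a median log2 fold change of 0.31. Elf3, an epithelial transcription factor, stood at 80.5, 66.5, 65.8 and 71.4 CPM in mutant libraries, against 24.7, 25.8, 22.04 and 29.3 CPM in control libraries. The groups did not overlap, and the change was 2.79-fold with an adjusted p of 4.89e-05 (edgeR, Benjamini-Hochberg). Orm1, an acute-phase protein, rose 3.44-fold and was low in both groups (5.17 ± 1.51 CPM in mutant and 1.51 ± 0.524 CPM in control libraries). Cxcl5, a chemokine for neutrophils, averaged 4.11 ± 2.46 CPM in mutant and 0.837 ± 0.419 CPM in control libraries. Socs3, a feedback inhibitor of STAT3 signalling, stood at 109.5, 96.9, 112 and 127 CPM in mutant libraries, against 67.8, 35.3, 30.0 and 68.7 CPM in control libraries, with the control values again split by library pair. Osmr, the oncostatin M receptor, rose 1.36-fold, Spdef, a transcription factor of goblet cells, 1.68-fold, and Il6 averaged 1.58 ± 0.491 CPM in mutant and 0.263 ± 0.304 CPM in control libraries. The transcription factors Stat3, Cebpb and Cebpd and the NF-kB cofactor Nfkbiz did not pass the test. Their log2 fold changes were 0.29, 0.34, 0.13 and 0.22. Nfkbia, Il6ra and Tnf of the same list, also not called, were at -0.33, -0.50 and -0.62, and Nfkb1 was at 0.04. Il22 was listed at 0 in all libraries, and Il17a, Il17c and Il17f were below the filter. Over all these related lists 22 of 101 tested genes rose and 0 fell, where 5.45% and 2.36% of all tested genes did. The lists were chosen with earlier results of these data known, so an excess over all genes may follow from the choice. The groups did not overlap for 27 genes higher and 2 lower in mutant libraries, where 9.75% and 7.07% of all tested genes did not. The number that rose was 35 without control 1, 14 without mutant 1 and 14 without mutant 2, and 4 fell without control 1. Of all tested genes 8.86% rose and 6.52% fell without control 1. Without mutant 1 the share that rose was 3%, and without mutant 2 it was 3.12%.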

How the data were processed

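RNA was measured in 8 libraries, 4 mutant and 4 control, grouped by the genotype and title in the labels. The deposited table holds raw counts of fragments per gene, 1 column per library, and the gene length in bases. Fragments were assigned to GENCODE M25 genes on GRCm38 with featureCounts 1.6.2, per the file headers, with strand ignored and with multi-mapping and multi-gene reads dropped. STAR, Bowtie2 and Cufflinks appear in the submitters' processing notes with no stated role. Since counting ignored strand, and the labels give 2 kits of which 1 keeps strand, reads of a gene and those of any antisense RNA over it cannot be told apart. Of the 10 genes only Slpi shares a base with another annotated exon, 1 base of Mir7678.

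Symbols came from GENCODE release M21, which matched 99.53% of identifiers. After filterByExpr (minimum count 10 and total 15) and TMM scaling, the groups were compared by the quasi-likelihood F test of edgeR 4.0.16 in R 4.3.3 (robust fit, group alone in the model), with Benjamini-Hochberg adjustment over 16964 genes and a threshold of 0.05. CPM and RPKM were computed from the counts with TMM-scaled library sizes and the deposited lengths. Ratios within a library were compared by exact two-sided permutation tests on the log2 scale. Alternatives covered RLE size factors, library totals, other filters, DESeq2 1.42.0, voom from limma 3.58.1, a replicate block, removal of each library's GC trend, left-out libraries and a scale relative to Epcam. Leaving out libraries for the 2 ratios was added after seeing the data. A planned comparison of protein sequences was not made.

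The 10 genes, the related lists and the marker lists were chosen with earlier results of these data known. Genes named besides the 10 are Cdh1, Epcam, Pecam1 and Scgb1a1, the called genes of each list that have its lowest adjusted p, at most 3, and those needed to say what a count of 5 or fewer is made of. S100a8, S100a9, Csf3r, Retnlg, Cxcr2, Camp, Ngp, Bpifa5, Lbp, Hpx, Hamp, Jchain, Igha, Chil4, Lyz1, Lyz2, Lpo, Defb1, Stat3, Cebpb, Cebpd and Nfkbiz, and called genes past the first 3 of a list, were named after their values were seen. So were Nfkb1, Nfkbia, Il6ra, Tnf, Ccl28, Wfdc6a, Wfdc6b, Wfdc8, Wfdc10, Wfdc16 and Eppin.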

Additional observations from a re-analysis of the deposited data

Results flagged for a closer look

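Single libraries stood apart from the rest of their group for 2 of the 10 genes. Bpifa1 stood at 735.1 CPM in control 4, while the other control libraries lay between 449.4 and 496.5 CPM. The gap to the nearest library took a share of 0.835 of the group's whole range, above Dixon's 95% critical value for 4 samples. Slpi stood at 44.92 CPM in mutant 3, while the other mutant libraries lay between 53.3 and 54.69 CPM, a gap of 0.858 of the range. Both genes were on the same side of the threshold without these libraries. The rule was applied to 28 groups of libraries, the 10 genes and 4 marker genes in each group, and chance flags about 1 group in 20.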

How the results depend on the processing

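The calls of Ltf, Lcn2, Reg3g, Bpifb1 and Slpi and the absence of a call for Hp, Bpifa1, Pigr and Chil1 held in all 19 other fits, with log2 fold changes of 2.70 to 3.07 for Ltf, 1.26 to 1.52 for Lcn2, 2.23 to 2.55 for Reg3g, 1.502 to 1.81 for Bpifb1 and 0.67 to 0.78 for Slpi. Wfdc2 passed the threshold with library totals (log2 fold change 0.42), no filter (0.37), DESeq2 (0.34), without controls 2 and 3 (0.47) and without controls 1 and 4 (0.25). Per unit of Epcam, Wfdc2 turned to -0.26, Slpi fell to 0.10, Hp came to -0.74, and 2 of the 10 genes were lower. The median of all tested genes was -0.61 on this scale, and the share of all genes lower on it was not computed. Leaving out 1 library gave 14 to 35 related genes called higher (35 without control 1, 14 without mutant 1 or mutant 2) and 0 to 4 called lower (4 without control 1). Called lower were also 2 with no filter (1.42% of all tested genes), 4 with DESeq2 (2.7%), 1 with the GC trend removed (2.97%) and 3 without control 1 and mutant 4 (3.69%). Without controls 1 and 4, 42 were higher and 12 lower, in a fit that called 21.5% of all tested genes higher and 19.2% lower. The log2 difference in the ratio of Slpi to Wfdc2 ran from 0.31 to 0.45 with 1 library left out. Without any 1 mutant library its exact permutation p was 0.0571. That of Bpifb1 to Bpifa1 ran from 1.81 to 2.02. Over all tested genes, leaving out 1 library gave 515 to 1517 called higher (3% to 8.86%) and 146 to 1117 lower (0.85% to 6.52%). Replicate numbers did not pair the libraries: same-numbered libraries had correlations of deviations from the group means of 0.01, 0.13, -0.12 and 0.13. With a replicate block, 5 of the 10 genes were higher and 0 lower, and 22 related genes were higher and 1 lower. The cause of these shifts was not tested. Depth limits the other Reg genes and the listed defensin genes, which were all below the filter.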
